A study of Mus musculus with 28 samples.

Results

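Chemokines are small secreted or membrane-anchored proteins that steer the movement of cells, and chemokine receptors are the proteins on the cell surface that read them. The genes described are the 59 protein-coding genes of the count table whose symbols name a CC, CXC, CX3C or XC chemokine (37 ligands) or a chemokine receptor (22 receptors, 4 of them atypical), out of 21764 protein-coding genes and 50600 genes in all. They were chosen by symbol and not by their values, although earlier results of these data were known when the choice was made. RNA-seq was performed on cells sorted from the mammary glands of 7 adult female C57BL/6 mice that carried PdgfrαCre and the R26mTmG reporter. Of these, 4 were left untreated and 3 were given estrogen plus progesterone (E+P). The paper describes slow-release hormone pellets in a sentence on wild-type mice, and the same delivery is assumed here. Cre removes the red reporter, so that cells in which PdgfrαCre had acted, and all of their descendants, are GFP+, whereas the remaining cells are tdTomato+. GFP therefore reports the history of a cell and not its present Pdgfrα level. Each mouse gave GFP+ stroma, tdTomato+ stroma, GFP+ luminal and tdTomato+ luminal cells, which makes 8 groups and 28 libraries with 4 untreated or 3 E+P libraries in each group. Cells that bound antibodies to CD31, CD45 or Ter119 were gated out before sorting, which removes endothelial cells, leukocytes and red cells, and luminal cells were separated from stroma by EpCAM and CD49f.

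Inflammatory chemokines are produced on demand by many cell types, and they recruit neutrophils through CXCR2, monocytes through CCR2 and activated T cells through CXCR3. Homeostatic chemokines such as CXCL12, CCL19, CCL21 and CXCL13 are made constantly by stromal cells and hold leukocytes and progenitors in their niches. Atypical receptors bind chemokines without signalling through G proteins and take them up for degradation, which shapes how far a chemokine spreads. In the mammary gland, chemokines of stromal and epithelial cells guide macrophages and eosinophils to the growing ducts.

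Between 8623383 and 24583803 reads were counted on genes per library, and levels are given as CPM, read counts relative to the library total after scaling by edgeR's TMM factors. At these depths 3 counts, the upper limit that a count of 0 allows, correspond to between 0.116 and 0.302 CPM, which covers counting error only. The sorted groups carried the markers of their labels. Pdgfra stood at 1822 to 2455 CPM in GFP+ stroma and at 35.3 to 273 CPM in tdTomato+ stroma, and Epcam at 659 to 1087 CPM in luminal cells. The tdTomato+ stroma was mixed in kind, since 9 skeletal muscle markers summed to 2527 to 21223 CPM there and to at most 16.3 CPM in GFP+ stroma, and 10 pericyte and smooth muscle markers to 7646 to 10671 CPM against 773 to 917 CPM. The sum of 21 leukocyte markers was 34.3 to 67.7 CPM in tdTomato+ stroma, 4.51 to 8.93 CPM in GFP+ stroma and 6.71 to 12.7 CPM in luminal cells. Of these, Adgre1, C1qb and S100a9 had no counts in any tdTomato+ stromal library, and Ptprc (CD45) was at 6.24 to 18.9 CPM there. In bulk samples such as these, fewer cells of a type and less RNA per cell cannot be told apart.

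Several members lie side by side in the genome. On GRCm38, Cxcl5, Cxcl3, Cxcl15, Cxcl1 and Cxcl2 occupy chr5:90759360-90905938, Ccl2, Ccl7, Ccl11, Ccl12, Ccl8 and Ccl1 occupy chr11:82035571-82305690, and Ccl5, Ccl9, Ccl6, Ccl3 and Ccl4 occupy chr11:83525778-83664683. The first chromosome 5 run holds neighbours with opposite patterns, because Cxcl15 was a luminal gene and the 4 genes around it were stromal, and Cxcl10, farther along chromosome 5, was 1 of the 2 members called after E+P in tdTomato+ luminal cells. The promoters of Cxcl1, Cxcl2, Cxcl15 and Cxcl10 are therefore shown, each from 250 bases before to 50 bases after the start that RefSeq gives on GRCm38.p6, at chr5:90890995-90891294 (plus strand), chr5:90903649-90903948 (plus strand), chr5:90794284-90794583 (plus strand) and chr5:92348840-92349139 (minus strand). Capitals mark matches, on either strand, to the NF-κB motif, GGG and TTTCC with any 2 bases between them (Cxcl1 and Cxcl2), the interferon-stimulated response element, GAAA and GAAA with any 2 bases between them (Cxcl10) or the TATA box TATAAA (Cxcl15).

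Cxcl1 promoter: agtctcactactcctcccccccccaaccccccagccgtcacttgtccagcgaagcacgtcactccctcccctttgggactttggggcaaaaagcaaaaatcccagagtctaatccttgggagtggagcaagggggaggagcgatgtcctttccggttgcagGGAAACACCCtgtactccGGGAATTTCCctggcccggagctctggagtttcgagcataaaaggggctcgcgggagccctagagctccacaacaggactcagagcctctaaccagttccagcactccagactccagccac

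Cxcl2 promoter: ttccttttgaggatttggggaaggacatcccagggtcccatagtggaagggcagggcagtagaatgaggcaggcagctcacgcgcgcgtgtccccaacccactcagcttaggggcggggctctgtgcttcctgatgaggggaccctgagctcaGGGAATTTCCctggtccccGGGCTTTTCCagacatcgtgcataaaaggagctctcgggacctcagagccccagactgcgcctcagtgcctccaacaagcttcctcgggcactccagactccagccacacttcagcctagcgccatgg

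Cxcl15 promoter: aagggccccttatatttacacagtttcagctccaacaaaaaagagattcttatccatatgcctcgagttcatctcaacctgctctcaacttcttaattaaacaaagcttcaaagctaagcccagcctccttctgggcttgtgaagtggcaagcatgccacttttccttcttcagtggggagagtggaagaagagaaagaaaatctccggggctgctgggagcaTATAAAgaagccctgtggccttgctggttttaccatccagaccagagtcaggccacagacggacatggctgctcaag

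Cxcl10 promoter: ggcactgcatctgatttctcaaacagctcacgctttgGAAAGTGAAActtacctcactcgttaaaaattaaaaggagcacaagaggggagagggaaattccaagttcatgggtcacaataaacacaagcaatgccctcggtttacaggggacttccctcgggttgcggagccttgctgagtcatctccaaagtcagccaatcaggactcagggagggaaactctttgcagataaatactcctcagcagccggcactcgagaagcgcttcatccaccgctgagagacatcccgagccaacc

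Of 32851 RefSeq promoter windows of this length, 1.63% held the NF-κB motif, 3.44% held the interferon-stimulated response element and 13.6% held TATAAA, and the marked matches did not overlap one another. Of the 45 members with a window, 6 held the NF-κB motif (Ccl20, Cxcl1, Cxcl2, Cxcl3, Ccl9 and Ccr3), 3 held the response element (Cxcl10, Cxcl14 and Ccl19) and 14 held TATAAA. Thus Cxcl1, Cxcl2 and Cxcl3 carried the NF-κB letters in this window. Ccl8, Cxcl9 and Cxcl10, also inflammatory ligands, did not carry these exact letters, and neither did Cxcl13 and Cx3cl1. Other forms of the motif were not searched, so that a window without a match is not shown to lack an NF-κB site. Members without a window could not be searched. A match of letters is a description and was not tested for binding.

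Chemokine RNA was mainly stromal. Summed over the 59 members, the level was 3345 to 5972 CPM in untreated GFP+ stroma, 2978 to 3507 CPM in E+P GFP+ stroma, 2595 to 4318 CPM in untreated tdTomato+ stroma and 2935 to 3332 CPM in E+P tdTomato+ stroma. In luminal cells it was 339 to 600.0 CPM (untreated GFP+), 251 to 354 CPM (E+P GFP+), 246 to 379 CPM (untreated tdTomato+) and 430.2 to 772 CPM (E+P tdTomato+). Nearly all of it came from ligands, because the 22 receptors together summed to 246 to 299 CPM in GFP+ stroma, 59.0 to 149.8 CPM in tdTomato+ stroma and 8.81 to 63.1 CPM in luminal cells. A group mean of at least 10 CPM in some group was reached by 22 members, 19 of them ligands and only 3 receptors (Ackr3, Cxcr4 and Ackr2). Another 10 members reached between 1 and 10 CPM, and 27 stayed under 1 CPM in every group. Per kilobase of exon, which allows levels of different genes to be compared, the highest mean was that of Ccl2 (1297 CPM per kb, untreated GFP+ stroma), followed by Ccl11 (909 CPM per kb, untreated tdTomato+ stroma), Cxcl1 (788 CPM per kb, E+P tdTomato+ stroma) and Ccl7 (483 CPM per kb, untreated GFP+ stroma). The highest luminal mean per kilobase belonged to Cxcl15 (224 CPM per kb, E+P tdTomato+ luminal cells), and that of Cxcl12 was 39.0 CPM per kb at most.

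**Figure D1:**
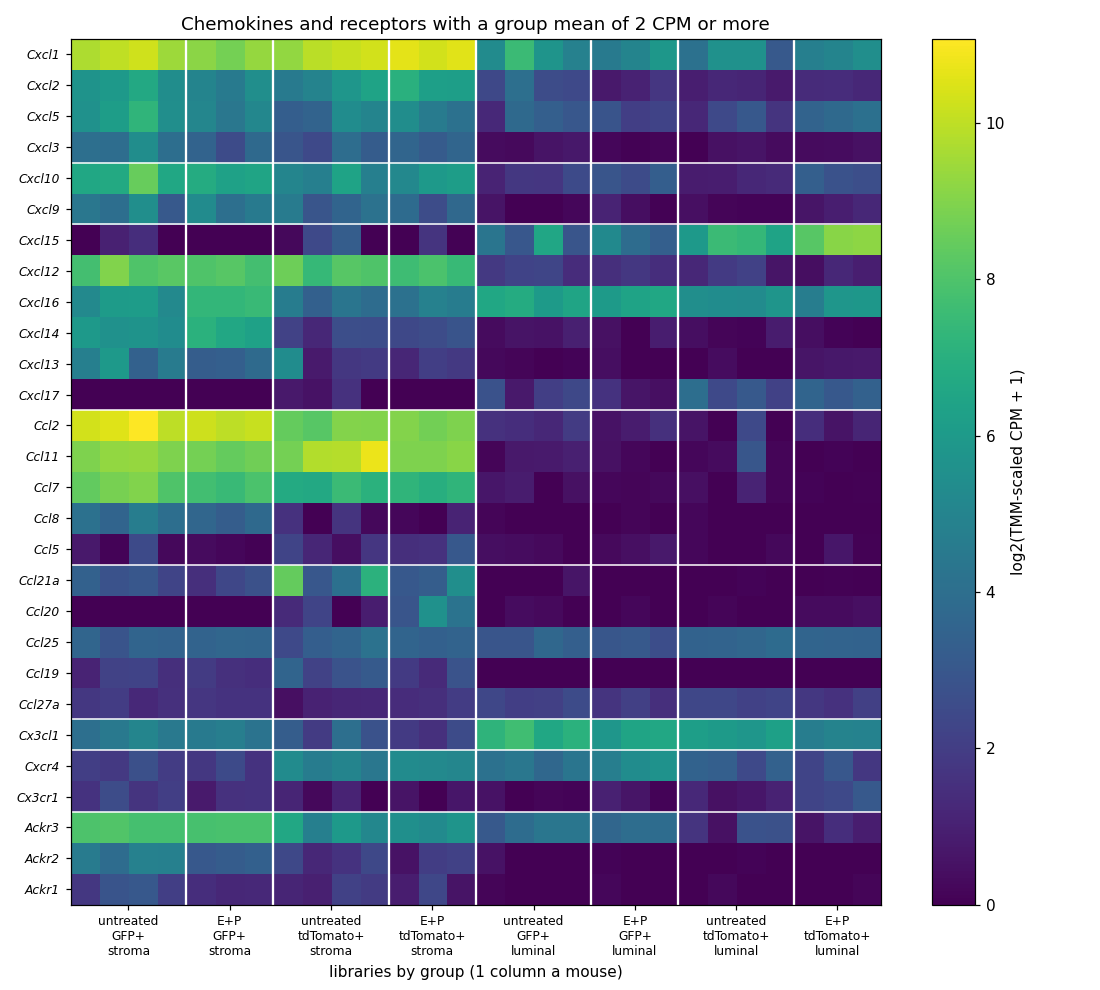
Levels of the 28 members with a group mean of at least 2 CPM, as log2(TMM-scaled CPM + 1), with 1 row a gene (grouped by role, from ligands at the top to atypical receptors at the bottom) and 1 column a library, in 8 groups. Most rows are bright only in the 14 stromal columns on the left, and Cxcl15, Cxcl17 and Cx3cl1 are brightest in the luminal columns on the right.

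The comparison of stroma with luminal cells asked which compartment makes which chemokine. Of 34 members that passed the low-count filter over all 28 libraries, 26 were called at an adjusted p under 0.01 (edgeR), 21 higher and 5 lower in stroma. Over all 19569 genes tested, 63.5% were called (33.0% higher and 30.5% lower), and of the members 76.5% were called and 61.8% were higher. The median log2 fold change was 4.06 over the 34 and 0.02 over all genes tested, and without the filter it was 2.04 over 55 members and 0.15 over all genes. The filter passes a gene that is high in a few groups, and 25 members did not pass it. All 28 libraries come from the same 7 mice, and the mouse numbers in the titles pair the libraries of an animal.

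Monocyte and eosinophil attractants headed the stromal genes. Ccl2, the main ligand of CCR2, had per mouse 1292, 1468, 2156 and 989 CPM in GFP+ stroma of untreated mice and 1204, 990.4 and 1143 CPM in E+P GFP+ stroma. In tdTomato+ stroma it had 349, 290.2, 519 and 496 CPM (untreated) and 519, 421 and 482 CPM (E+P), and in the 14 luminal libraries it ran from 0 to 4.48 CPM. Every stromal library thus exceeded every luminal one by a wide margin, and the log2 fold change was 9.21 ± 0.47 (SE, edgeR adjusted p = 4e-14). Ccl11 (eotaxin, the CCR3 ligand that attracts eosinophils) was at 354 to 1704 CPM in stroma and at most 6.87 CPM in luminal cells (log2 fold change 10.94 ± 0.58). Ccl7, which acts on the same receptors as Ccl2 and Ccl11, was at 100.4 to 502 CPM against at most 1.16 CPM (10.14 ± 0.32). Ccl8, their neighbour on chromosome 11, was lower in level, from 0 to 24.8 CPM in stroma and at most 0.155 CPM in luminal cells (6.74 ± 0.71), and its groups overlapped because 2 tdTomato+ stromal libraries were at 0. Ccl5, a T cell attractant, was called at low level (0.0492 to 7.40 CPM against at most 0.708 CPM, 2.32 ± 0.62), and its call was lost without E+P mouse 1. Of the 12 ligands in this list of inflammatory CC chemokines, 6 were tested and 5 were called, all higher in stroma.

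The neutrophil attractants that bind CXCR2 were stromal as well. Cxcl1 had 829.9, 1047, 1236 and 690.0 CPM in GFP+ stroma of untreated mice, 615, 980.1, 1132 and 1293 CPM in untreated tdTomato+ stroma, and 431 to 1596 CPM in the E+P stroma. In luminal cells its lowest value was 7.41 CPM and its highest 188 CPM, so that the lineages did not overlap but luminal cells were not devoid of it (log2 fold change 4.51 ± 0.33). Cxcl2 (22.2 to 129 CPM against 0.680 to 15.3 CPM, 4.78 ± 0.28) and Cxcl3 (4.51 to 41.7 CPM against at most 0.629 CPM, 5.47 ± 0.31) did not overlap either. Cxcl5 differed least of the 4, at 8.93 to 149.8 CPM in stroma against 1.34 to 16.2 CPM in luminal cells (2.44 ± 0.33), and was higher in stroma in 7 of 7 mice. All 4 tested members of this list of 5 were called. Genes known to respond to enzymatic dissociation, which the glands underwent, summed to 7847 to 15099 CPM in stroma and 2667 to 8318 CPM in luminal cells over 15 genes. Their part in the levels of the inducible chemokines was not tested.

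The interferon-inducible ligands of CXCR3 were higher in stroma. Cxcl10 had 94.8, 104, 359 and 96.6 CPM in GFP+ stroma of untreated mice and 26.4 to 85.8 CPM in untreated tdTomato+ stroma, against 0.774 to 9.29 CPM in all luminal libraries (log2 fold change 4.50 ± 0.29). Untreated mouse 3 had by far the highest Cxcl10 of both stromal subsets, and no stromal library fell into the luminal range. Cxcl9 ran from 5.04 to 43.0 CPM in stroma and reached at most 1.38 CPM in luminal cells (5.62 ± 0.42). The third ligand, Cxcl11, is annotated as a polymorphic pseudogene, is not a member, and had 59 counts over all libraries. The exons of Cxcl10 overlap those of Art3 on the opposite strand, and the strand setting of the counting is not given in the sources used here. Art3 was at 45.5 to 59.1 CPM in tdTomato+ stroma, 4.13 to 8.08 CPM in GFP+ stroma and at most 0.256 CPM in luminal cells, an order different from that of Cxcl10.

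Homeostatic ligands split between the lineages. Cxcl12, which retains CXCR4-bearing cells, had 219.6, 496, 258 and 300.5 CPM in GFP+ stroma of untreated mice and 395, 172, 289 and 256 CPM in untreated tdTomato+ stroma. The E+P stroma had 177 to 296 CPM, and luminal cells 0.320 to 4.00 CPM, which gives a log2 fold change of 7.18 ± 0.26 (adjusted p = 3.8e-17). Cxcl14 (1.35 to 134 CPM against at most 0.943 CPM, 5.82 ± 0.32) and the B cell attractant Cxcl13 (0.722 to 63.4 CPM against at most 0.666 CPM, 6.05 ± 0.66) were stromal too. Among CCR7 ligands, Ccl21a ran from 1.79 to 353 CPM in stroma and to at most 0.550 CPM in luminal cells (9.21 ± 0.91). Ccl19 ran from 1.14 to 10.9 CPM in stroma and had 0 counts in all 14 luminal libraries, so that its mean was at least 21.5-fold higher in stroma (against a floor of 3 counts per library). Ccl21a and Ccl19 have near-identical copies in the genome, and reads that fit several copies could have been split or dropped, so their levels are uncertain. The pseudogene Ccl19-ps1 also had counts, at 1.04 to 4.18 CPM in tdTomato+ stroma.

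A small set of ligands had the opposite pattern. Cxcl15 (lungkine, an epithelial neutrophil attractant of the mouse) had 62.8, 185, 167 and 83.8 CPM in tdTomato+ luminal cells of untreated mice and 294, 553 and 579 CPM in E+P tdTomato+ luminal cells, against 6.68 to 91.6 CPM in GFP+ luminal cells. In stroma it ran from 0 to 8.63 CPM (log2 fold change -7.77 ± 0.81, lower in stroma in 7 of 7 mice). The 8.63 CPM belonged to the untreated tdTomato+ stroma of mouse 3, which also had the highest sum of 11 luminal markers of any stromal library, 833 CPM against 62.9 to 560.4 CPM in the other 13, whereas luminal libraries had 4815 to 11644 CPM. Cxcl17, a mucosal chemokine, was at 0.375 to 14.8 CPM in luminal cells and at most 1.99 CPM in stroma (-7.32 ± 0.73). Cx3cl1 (fractalkine, a ligand held on the membrane that binds CX3CR1) was at 24.8 to 206 CPM in luminal cells and 1.93 to 31.5 CPM in stroma (-2.69 ± 0.19). Ccl27a, a ligand of CCR10, differed less (1.83 to 4.79 CPM against 0.380 to 2.94 CPM, -0.80 ± 0.18), and its exons overlap Il11ra1 on the opposite strand. Cxcl16, the other membrane-held ligand, was lower in stroma on average (-0.55 ± 0.15, adjusted p = 0.0019), but in only 4 of 7 mice, and the call was lost when untreated mouse 4, E+P mouse 2 or E+P mouse 3 was left out.

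Signalling receptors were scarce in both lineages and the atypical ones were stromal. Ackr3, the scavenger of CXCL12, was at 26.5 to 268 CPM in stroma and 0.426 to 19.6 CPM in luminal cells (4.36 ± 0.28). Ackr2, which clears inflammatory CC chemokines, was at 0.459 to 28.2 CPM against at most 0.443 CPM (7.80 ± 0.51). Ackr1 (0.489 to 7.37 CPM against at most 0.183 CPM, 5.69 ± 0.56) and Ackr4, the scavenger of CCR7 ligands (at most 1.94 CPM against at most 0.314 CPM, 2.77 ± 0.57), completed the list, so that 4 of 4 atypical receptors were called higher in stroma. Ackr1 shares exon sequence with Cadm3 on the same strand and Ackr4 overlaps Acad11 on the opposite strand. Cxcr4, the signalling receptor of CXCL12, was at 2.07 to 39.6 CPM in stroma and 2.47 to 48.8 CPM in luminal cells and was not called between the lineages (-0.28 ± 0.17, adjusted p = 0.15), the subsets of each lineage lying far apart. Ccr2 was called higher in stroma (at most 2.91 CPM against at most 0.190 CPM, 3.77 ± 0.92). It was tested in only 4 of the 7 fits that left out a mouse, and among these the call was lost without untreated mouse 3.

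The second comparison set GFP+ against tdTomato+ stroma, cells marked and not marked by PdgfrαCre. The tdTomato+ stroma still held Pdgfra RNA, as given above, so it cannot be taken as cells without a Pdgfrα history. Of 32 members that passed the filter in the 14 stromal libraries, 14 were called (edgeR adjusted p under 0.01), 8 higher and 6 lower in GFP+ cells, where 42.0% of all genes tested were called (20.6% higher and 21.3% lower). The share was therefore near that of all genes. With the mouse as a block 13 members were called, the block ending those of Ccr2 and Ccl21a, among others, and adding Cxcl10 and Cxcl15.

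GFP+ stroma had more of the monocyte attractants Ccl2 and Ccl7, and more Ccl8. Ccl2 ran from 989 to 2156 CPM in GFP+ stroma and from 290.2 to 519 CPM in tdTomato+ stroma, with no overlap and GFP+ higher in 7 of 7 mice (log2 fold change 1.52 ± 0.17, adjusted p = 1.5e-06). Ccl7 was at 183 to 502 CPM against 100.4 to 187 CPM (1.05 ± 0.16), which overlapped only at the edge, since 1 GFP+ library (183 CPM) lay under the highest tdTomato+ value. Ccl8 was at 8.71 to 24.8 CPM against at most 2.19 CPM (4.28 ± 0.69). Ccl11, from the same run of genes on chromosome 11, did not share this difference. It had 489.6, 615, 639 and 485 CPM in GFP+ stroma of untreated mice and 429, 878, 925 and 1704 CPM in untreated tdTomato+ stroma, and was lower in GFP+ cells in 6 of 7 mice without passing the threshold (-0.60 ± 0.23, adjusted p = 0.037).

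Cxcl14 differed by a wide margin without overlap, at 40.7 to 134 CPM in GFP+ stroma and 1.35 to 6.42 CPM in tdTomato+ stroma (4.00 ± 0.24). Both membrane-held ligands were also higher in GFP+ stroma, Cxcl16 at 35.9 to 181 CPM against 9.66 to 27.9 CPM (2.25 ± 0.22) and Cx3cl1 at 15.5 to 31.5 CPM against 1.93 to 15.5 CPM (2.12 ± 0.32). The scavengers Ackr3 (225 to 268 CPM against 26.5 to 99.3 CPM, 2.24 ± 0.24) and Ackr2 (7.22 to 28.2 CPM against 0.459 to 4.27 CPM, 2.40 ± 0.36) followed the same direction in 7 of 7 mice. Cxcl12 did not differ at this precision, with 217 to 496 CPM against 172 to 395 CPM (0.25 ± 0.20, adjusted p = 0.31). Cxcl10 missed the threshold (1.33 ± 0.41, adjusted p = 0.016) although GFP+ was higher in 7 of 7 mice, and it passed with the mouse as a block (adjusted p = 3.2e-05).

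Members lower in GFP+ stroma were led by Ccl20, the ligand of CCR6. It had 0 counts in all 7 GFP+ stromal libraries, and in tdTomato+ stroma 1.52, 3.79, 0 and 0.874 CPM (untreated) and 6.53, 47.1 and 17.6 CPM (E+P), so that its mean was at least 52.7-fold lower in GFP+ stroma (floor of 3 counts per library, adjusted p = 0.002). Without E+P mouse 2, which had the highest value, the mean was at least 23.1-fold lower, and the call was lost without E+P mouse 3. Cxcr4 was at 2.07 to 5.42 CPM in GFP+ stroma and 20.1 to 39.6 CPM in tdTomato+ stroma (-3.29 ± 0.23, adjusted p = 1.9e-09), without overlap. The receptor of CXCL12 and its scavenger Ackr3 thus had opposite orders in the stroma, where the ligand was at like levels in both subsets. Cxcl1 was called lower in GFP+ cells (-0.78 ± 0.17), but in only 4 of 7 mice, and its ranges of 431 to 1236 CPM and 615 to 1596 CPM overlapped.

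Ccr2, the monocyte receptor of Ccl2, was at most 0.244 CPM in GFP+ stroma and at most 2.91 CPM in tdTomato+ stroma (-3.46 ± 0.94). With the mouse as a block its adjusted p was 0.035. It was tested in only 4 of the 7 fits that left out a mouse. Among these the Ccr2 call was lost without E+P mouse 1 or E+P mouse 2. The leukocyte marker list moved with it, and 7 of its 21 genes had a mean of at least 1 CPM in tdTomato+ stroma of either treatment against 1 in untreated and 2 in E+P GFP+ stroma. The part of leukocytes in this difference was not tested. Ccl21a, made by lymphatic endothelium and by lymphoid stroma, had 353, 7.04, 15.8 and 136 CPM in untreated tdTomato+ stroma, 7.25, 8.6 and 43.6 CPM in E+P tdTomato+ stroma and 1.79 to 9.99 CPM in GFP+ stroma. The 2 highest values, those of untreated mice 1 and 4, stood far above the other 5 tdTomato+ values. The log2 fold change was -3.29 ± 0.87, the adjusted p was 0.0074 without and 0.043 with the block, and the call was lost without untreated mouse 1, untreated mouse 4 or any E+P mouse. Of 10 endothelial markers, all had a mean of at least 1 CPM in tdTomato+ stroma and 5 in GFP+ stroma. Lyve1 (4.71 to 94.2 CPM against at most 0.325 CPM) and Prox1 (60.6 to 153 CPM against 1.46 to 3.03 CPM), both on this list, were higher in tdTomato+ than in GFP+ stroma. The sum of the list was 136 to 246 CPM in untreated and 256 to 559 CPM in E+P tdTomato+ stroma, and 141 to 279 CPM in GFP+ stroma. The list was thus higher after E+P in tdTomato+ stroma, whereas the 2 highest Ccl21a values were those of untreated mice. The part of lymphatic or other cells was not tested.

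**Figure D2:**
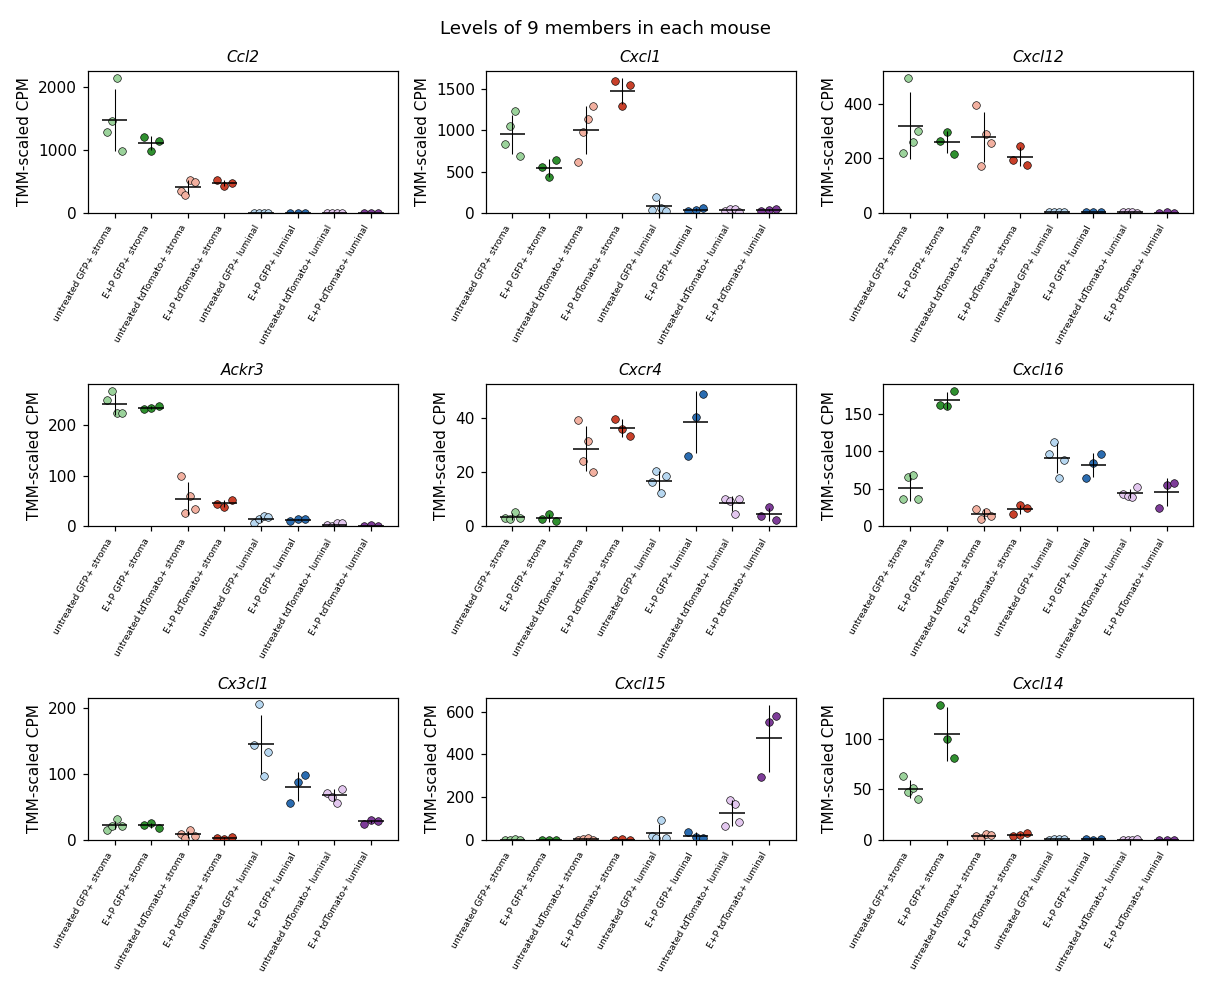
TMM-scaled CPM of 9 members in each of the 8 groups, with 1 point a mouse, a horizontal bar at the mean and a vertical bar of 1 SD (n = 4 untreated or 3 E+P mice). Ccl2, Cxcl1 and Cxcl12 are lowest in the 4 luminal groups, Ackr3 and Cxcl14 peak in GFP+ stroma, Cxcr4 is low in GFP+ stroma (at most 5.42 CPM), and Cx3cl1 and Cxcl15 are luminal.

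In luminal cells, 21 members passed the filter and 9 were called between GFP+ and tdTomato+ cells, 5 higher and 4 lower in GFP+ cells. Of all genes tested in this comparison 34.7% were called (15.7% higher and 19.0% lower), against 42.9% of the 21 members. With so few members, nothing particular to them is read from this share. With the mouse as a block 8 were called, and the block ended the call of Cxcl2.

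Cxcr4 had 16.4, 20.2, 12.1 and 18.7 CPM in untreated GFP+ luminal cells and 26.0, 40.2 and 48.8 CPM in E+P GFP+ luminal cells. In tdTomato+ luminal cells it had 10.1, 9.25, 4.48 and 10.0 CPM (untreated) and 3.85, 7.14 and 2.47 CPM (E+P). The subsets did not overlap, and GFP+ was higher in 7 of 7 mice (log2 fold change 2.01 ± 0.26, adjusted p = 3.9e-05), which is the reverse of the order in stroma. Ackr3 was higher in GFP+ luminal cells as it was in GFP+ stroma (7.41 to 19.6 CPM against 0.426 to 5.85 CPM, 2.84 ± 0.47). Cx3cl1 had 145, 206, 96.9 and 133 CPM in untreated GFP+ and 72.0, 65.2, 56.2 and 77.1 CPM in untreated tdTomato+ luminal cells (1.29 ± 0.17 over both treatments). Cxcl16 was at 64.2 to 113 CPM against 24.8 to 57.3 CPM (0.91 ± 0.18). Cxcl2 was called at 0.680 to 15.3 CPM against 0.737 to 1.62 CPM (1.29 ± 0.36, adjusted p = 0.009), but with the block the adjusted p was 0.011, and the call was lost whichever of the 7 mice was left out.

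Cxcl15 was lower in GFP+ luminal cells in 7 of 7 mice (6.68 to 91.6 CPM against 62.8 to 579 CPM, -3.30 ± 0.63, adjusted p = 0.001), a call lost without E+P mouse 2. Its chromosome 5 neighbours Cxcl1 (0.73 ± 0.50) and Cxcl5 (-0.31 ± 0.44) were not called in this comparison. Cxcl17 was lower too (0.375 to 5.95 CPM against 3.37 to 14.8 CPM, -2.20 ± 0.50), a call lost without untreated mouse 3, E+P mouse 2 or E+P mouse 3. Cx3cr1, the receptor of fractalkine, was at most 1.02 CPM in GFP+ and 0.426 to 7.47 CPM in tdTomato+ luminal cells (-2.85 ± 0.55), so that ligand and receptor of this pair had opposite orders. Ccl25 differed little (5.08 to 11.8 CPM against 10.1 to 13.7 CPM, -0.60 ± 0.15), its call was lost when any mouse other than untreated mouse 3 was left out, and its exons overlap those of Elavl1, which was at 58.9 to 77.5 CPM in luminal cells, on the opposite strand.

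The luminal markers differed between these subsets as well. Esr1 was at 12.3 to 98.5 CPM in GFP+ and 74.6 to 389 CPM in tdTomato+ luminal cells, Pgr at 20.5 to 257 CPM against 302 to 727 CPM, Kit at 642 to 1155 CPM against 37.0 to 279.6 CPM and Elf5 at 161 to 281 CPM against 9.75 to 89.6 CPM. The 11 luminal markers summed to 4815 to 8453 CPM against 8726 to 11644 CPM and the 5 basal markers to 41.6 to 132 CPM against 7.60 to 62.5 CPM. Their part in the chemokine differences was not tested.

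**Figure D3:**
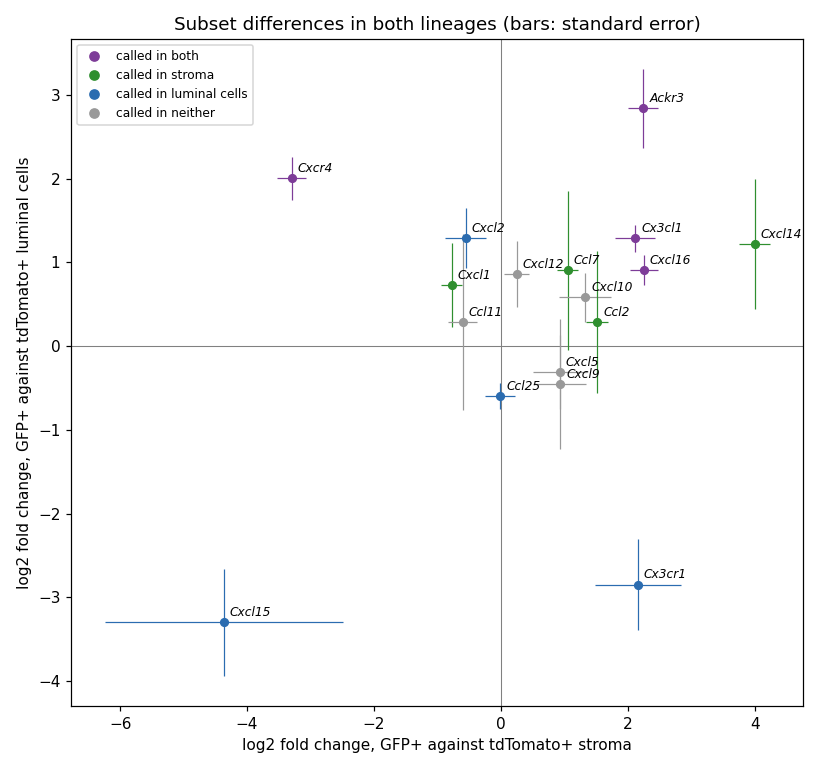
Log2 fold change of GFP+ against tdTomato+ cells in stroma (horizontal axis) and in luminal cells (vertical axis) for the members tested in both and with a group mean of at least 5 CPM in some group, with bars of 1 SE from edgeR. Ackr3, Cxcl16 and Cx3cl1 lie at the upper right, higher in GFP+ cells of both lineages, and Cxcr4 lies alone at the upper left (-3.29 in stroma and 2.01 in luminal cells).

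Whether the subset difference itself differed between the lineages was tested in the fit of all 28 libraries, a comparison added after the values had been seen. Of 34 members 5 were called, where 33.2% of all genes tested were (16.3% higher and 17.0% lower). Cxcr4 differed by -5.32 ± 0.36 on the log2 scale (stroma minus luminal cells, adjusted p = 1.4e-11), Cxcl2 by -1.87 ± 0.51, Cxcl16 by 1.33 ± 0.30 and Cx3cr1 by 4.98 ± 0.92. No size is given for Ccl20, the fifth, because it had 0 counts in GFP+ stroma, was at most 0.380 CPM in luminal cells, where it did not pass the filter, and entered the test through tdTomato+ stroma. For Cxcr4 the 2 lineages had opposite directions, whereas Cxcl16 was higher in GFP+ cells of both and differed in size. Cx3cr1 was at 0.730 to 4.88 CPM in GFP+ and at most 1.23 CPM in tdTomato+ stroma (2.15 ± 0.68, adjusted p = 0.012), against the lower GFP+ values in luminal cells.

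E+P treatment asked how the same populations answer to ovarian hormones, with 3 treated against 4 untreated mice. In GFP+ stroma 0 of 32 members were called by edgeR, where 0.231% of all genes tested were (0.163% higher and 0.0675% lower), and 9 members had an unadjusted p under 0.05. The Wald test of DESeq2 called 1 and limma-voom 2. Cxcl16 came nearest, with 36.6, 66.3, 68.1 and 35.9 CPM in untreated and 162, 161 and 181 CPM in E+P mice. Every treated mouse stood well above every untreated one, and the log2 fold change was 1.70 ± 0.29 (adjusted p = 0.013). Zmynd15, whose exons overlap those of Cxcl16 on the opposite strand, moved with it, from 3.12 to 7.59 CPM in untreated to 20.8 to 26.3 CPM in E+P GFP+ stroma. Reads of the pair cannot be told apart without knowing how strand was used in counting. In tdTomato+ stroma, Cxcl16 was at 9.66 to 23.8 CPM (untreated) and 16.3 to 27.9 CPM (E+P), and the interaction of E+P and subset was 1.23 ± 0.42 (adjusted p = 0.30).

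In level, 9 of 27 members with a mean of at least 1 CPM had treated and untreated GFP+ stroma that did not overlap, where 14.8% of such genes did not overlap. Cxcl14 (80.6 to 134 CPM in E+P and 40.7 to 62.8 CPM in untreated mice, 1.06 ± 0.29, adjusted p = 0.14) and Cxcl16 had all treated values above. The other 7 had all treated values below. These were Ccl7 (183 to 243 CPM against 257 to 502 CPM, -0.86 ± 0.23), Cxcl1 (431 to 645 CPM against 690.0 to 1236 CPM, -0.79 ± 0.24), Ccl11 (354 to 438 CPM against 485 to 639 CPM, -0.48 ± 0.32), Cxcl3 (4.86 to 12.9 CPM against 14.5 to 41.7 CPM, -1.21 ± 0.46), Cxcl5 (19.8 to 34.3 CPM against 44.0 to 149.8 CPM, -1.41 ± 0.62), Ackr2 (7.22 to 9.54 CPM against 14.1 to 28.2 CPM, -1.46 ± 0.48) and Ackr1 (1.37 to 1.70 CPM against 2.42 to 7.37 CPM, -1.68 ± 0.67). None of the 9 passed the threshold over all genes. Ackr3 showed no such shift (232 to 239 CPM against 225 to 268 CPM, -0.03 ± 0.32).

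In tdTomato+ stroma 0 of 32 members were called (0.124% of all genes tested, 0.0281% higher and 0.0956% lower), 5 had an unadjusted p under 0.05, and neither DESeq2 nor limma-voom called any. Only Ccl20, with the values given above (3.96 ± 1.14, adjusted p = 0.17), and Ccl27a (1.68 to 2.94 CPM against 0.380 to 1.36 CPM, 1.05 ± 0.50) had groups that did not overlap, 2 of 28 members where 11.6% of genes did not overlap. Several marker lists shifted in these libraries. The basal epithelial markers summed to 19.3 to 35.5 CPM in E+P and 4.24 to 17.1 CPM in untreated tdTomato+ stroma. The 10 endothelial markers summed to 256 to 559 CPM against 136 to 246 CPM, and the 6 glial markers to 37.4 to 70.3 CPM against 16.5 to 32.7 CPM. The median log2 fold change over the 6 glial markers was -0.59, against the direction of their sum. The 9 fibroblast markers were lower, at 2167 to 2753 CPM against 2826 to 7428 CPM. Among tested genes, 1 of 4 basal, 7 of 10 endothelial, 2 of 6 glial, 9 of 9 fibroblast and 7 of 11 luminal markers had an unadjusted p under 0.05 (edgeR). The part of these cells in the Ccl20 values was not tested. The CXCR2 ligands had median log2 fold changes of -1.10 in GFP+ and 0.41 in tdTomato+ stroma over 4 tested genes, where all genes had medians of 0.00 and -0.03. The interaction of E+P and subset was called for 0 of 32 members (0.0450% of all genes tested), with 7 at an unadjusted p under 0.05 and 0 by DESeq2 and limma-voom. Cxcl1 had the smallest p in it (-1.35 ± 0.34, adjusted p = 0.14).

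In GFP+ luminal cells 1 of 21 members was called, where 5.96% of all genes tested were (3.17% higher and 2.78% lower). Cxcl2 had 4.31, 15.3, 4.91 and 4.40 CPM in untreated and 0.680, 1.08 and 2.33 CPM in E+P mice, all treated values being lower (log2 fold change -2.37 ± 0.52, adjusted p = 0.0087). The call was lost in the fit of the 2 groups alone, under limma-voom and without each of 6 of the 7 mice, and without untreated mouse 2 (15.3 CPM) the value was -1.71. Cxcr4 (26.0 to 48.8 CPM against 12.1 to 20.2 CPM, 1.19 ± 0.34, adjusted p = 0.035) and Cxcl10 (4.84 to 9.03 CPM against 1.14 to 4.64 CPM, 1.38 ± 0.40, adjusted p = 0.034) did not overlap between treatments and did not pass the threshold. Cx3cl1 had 55.9, 87.6 and 98.4 CPM in E+P and 96.9 to 206 CPM in untreated mice (-0.85 ± 0.23, adjusted p = 0.027). In level, 3 of 14 members did not overlap, where 30.0% of genes did not. In the same libraries the 5 basal epithelial markers summed to 117 to 132 CPM in E+P and 41.6 to 85.5 CPM in untreated mice, and the 9 fibroblast markers to 22.9 to 26.6 CPM against 39.1 to 118 CPM. The 11 luminal markers summed to 4815 to 5905 CPM in E+P and 6544 to 8453 CPM in untreated mice. Their part in these values was not tested.

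In tdTomato+ luminal cells 2 of 21 members were called, where 14.1% of all genes tested were (7.63% higher and 6.44% lower). Cxcl10 rose from 0.774, 0.852, 1.37 and 1.51 CPM in untreated to 9.29, 5.94 and 5.37 CPM in E+P mice (log2 fold change 2.62 ± 0.42, adjusted p = 0.00054), and this call held in every alternative run. Cx3cl1 fell from 72.0, 65.2, 56.2 and 77.1 CPM to 24.8, 29.8 and 29.3 CPM (-1.25 ± 0.24, adjusted p = 0.0021), a call lost without E+P mouse 2 or E+P mouse 3. Neither gene's groups overlapped. Cx3cr1 was at 3.77, 4.49 and 7.47 CPM in E+P and 0.426 to 1.45 CPM in untreated mice (2.56 ± 0.66, adjusted p = 0.011), just short of the threshold, so that in these cells the values of the fractalkine pair lay in opposite directions. Cxcl15, the most abundant luminal member, lay at 294 to 579 CPM in E+P and 62.8 to 185 CPM in untreated mice without overlap, but its spread was wide (1.96 ± 0.81, adjusted p = 0.094). Cxcl5 (10.4 to 16.2 CPM against 1.34 to 7.30 CPM, 1.85 ± 0.62, adjusted p = 0.044) was likewise not called. In level, 8 of 16 members did not overlap between treatments, where 39.4% of genes did not. Cxcl9, the other CXCR3 ligand tested, was under 1 CPM on average in both treatments (0.561 to 1.38 CPM against 0.0723 to 0.361 CPM, 2.55 ± 1.02, adjusted p = 0.079). Other markers moved in these libraries. The 11 luminal markers summed to 8726 to 9451 CPM in E+P and 9820.4 to 11644 CPM in untreated mice. The 5 basal epithelial markers summed to 35.4 to 62.5 CPM in E+P and 7.60 to 18.3 CPM in untreated mice, and 2 of the 5, Trp63 (18.7 to 24.5 CPM against 0.258 to 2.02 CPM) and Krt17 (6.80 to 22.4 CPM against 0.973 to 3.66 CPM), were called higher. Of the 21 leukocyte markers 4 were tested and 1 was called, Csf1r at 1.41 to 3.23 CPM against 0.145 to 0.619 CPM, while their sum was 6.71 to 12.7 CPM against 6.81 to 7.73 CPM and S100a9 and Nkg7 had no counts in either group. Their part in the values of Cxcl10, Cx3cl1 and Cx3cr1 was not tested.

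The interaction of E+P and subset in luminal cells was called for 0 of 21 members by edgeR (2.27% of all genes tested, 0.786% higher and 1.49% lower), with 6 at an unadjusted p under 0.05, 2 called by DESeq2 and 0 by limma-voom. Cxcr4 (2.07 ± 0.51, adjusted p = 0.028) and Cxcl2 (-2.94 ± 0.73, adjusted p = 0.026) had the smallest p. Cxcr4 had its highest E+P values in GFP+ luminal cells and its lowest in tdTomato+ luminal cells, as given above (-0.88 ± 0.37 in the latter, adjusted p = 0.094). Cxcl10 had all E+P values above all untreated values in both luminal subsets, and the difference of its 2 responses was not called (-1.24 ± 0.58, adjusted p = 0.23).

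**Figure D4:**
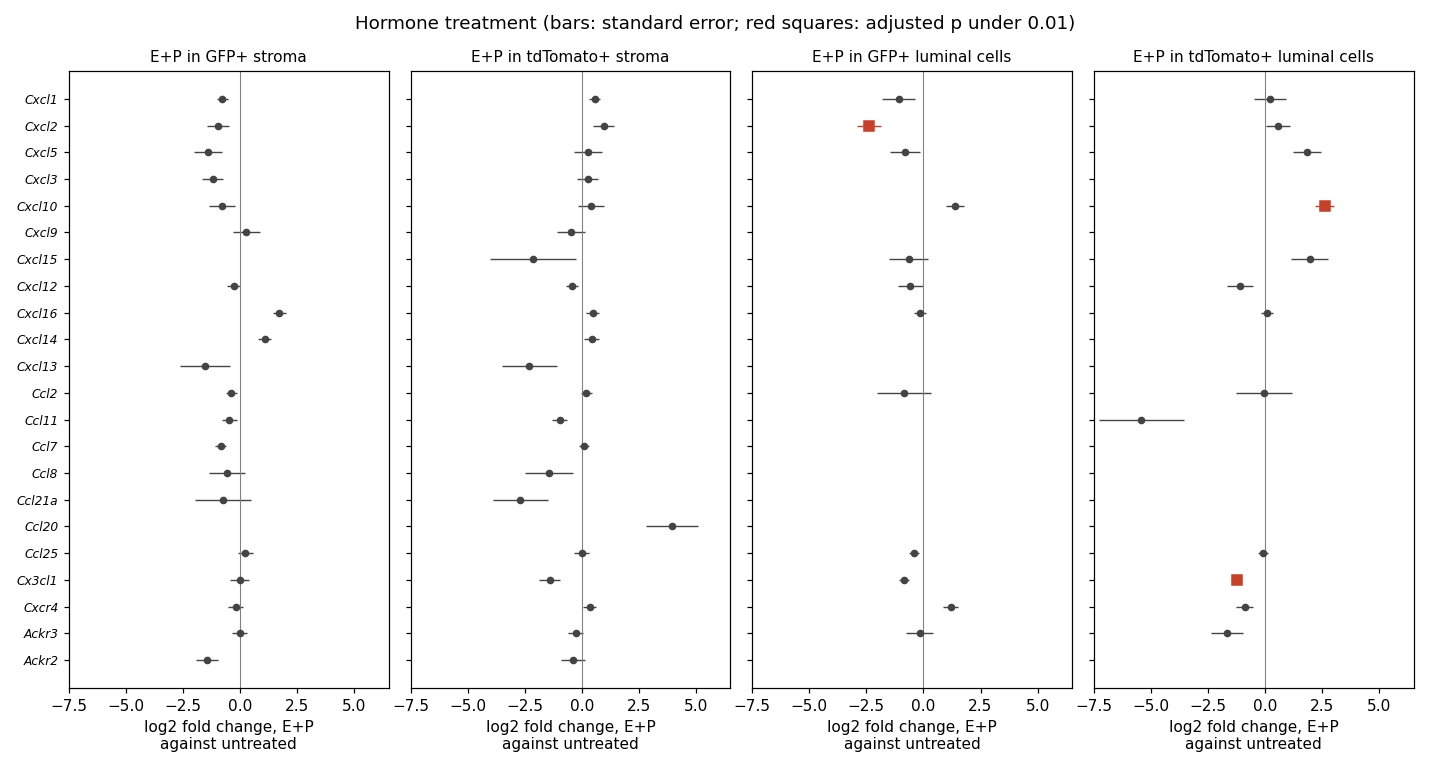
Log2 fold change of E+P against untreated mice in the 4 populations for the members with a group mean of at least 10 CPM in some group, shown where the gene was tested and had a mean of at least 1 CPM in that population, with bars of 1 SE from edgeR. Red squares mark the 3 calls at an adjusted p under 0.01, which are Cxcl2 in GFP+ luminal cells and Cxcl10 and Cx3cl1 in tdTomato+ luminal cells.

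Most receptors of the abundant ligands were near or below the limit of detection. Cxcr2, which reads Cxcl1, Cxcl2, Cxcl3 and Cxcl5, had 11 counts over all 28 libraries, Cxcr1 had 1, Ccr1 3 and Ccr3, the eotaxin receptor, 7. Cxcr3, the receptor of Cxcl9 and Cxcl10, had 1 count and Cxcr6, the receptor of Cxcl16, had 13. Ccr7 (54 counts), Cxcr5 (69 counts) and Ccr6 (12 counts) had their highest means, 0.484, 0.480 and 0.224 CPM, in E+P tdTomato+ stroma. Ccr9, the receptor of Ccl25, had 44 counts and Ccr10, which reads Ccl27a and Ccl28, had 30. Ccr4, Ccr8 and Xcr1 had 5, 10 and 20 counts. In all, 14 receptors stayed under 1 CPM in every group. Cxcr4 and Cx3cr1 were the only signalling receptors with a group mean above 2 CPM.

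The remaining ligands were few in reads. Ccl28, a mucosal ligand, was at most 2.96 CPM in any library and was not called in any comparison. Ccl6 and Ccl9 had group means of at most 0.872 and 0.845 CPM, Ccl17, Ccl4, Ccl3 and Ccl24 of at most 0.408 CPM, and Ccl1, Ccl12 and Ccl22 of at most 0.132 CPM. Ccl21b, Ccl26, Ccl27b and Xcl1 had 0 counts in every library. Counts in every library were found for 11 members.

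Genes that act downstream or upstream of the members were read from lists of their own. Of 25 tested genes of receptor signalling, 8 were higher and 11 lower in stroma than in luminal cells, led by Rgs16 (7.09), Pik3cg (-6.28) and Gnai1 (5.22 on the log2 scale), and 4 were higher and 12 lower in GFP+ than in tdTomato+ stroma, led by Rac2 (-6.56), Rgs1 (-6.42) and Pik3cg (-5.87). In luminal cells 6 of 23 were higher and 11 lower in GFP+ cells, led by Rgs2 (-2.79), Dock2 (-1.95) and Jak2 (-1.86). Of 15 cytokines, cytokine receptors and transcription factors that induce chemokines, 13 were higher and 0 lower in stroma, led by Il6 (9.76), Il1r1 (5.01) and Il17ra (3.87), and 1 was higher and 8 lower in GFP+ stroma. In GFP+ luminal cells 4 of the 15 were higher and 4 lower. Of 7 tested proteases and sheddases that trim or release chemokines, 6 were higher and 1 lower in stroma, led by Mmp2 (9.58), Dpp4 (5.02) and Mmp9 (4.74), and 4 were higher and 2 lower in GFP+ stroma, where Dpp4, which cuts CXCL12 and CXCL10, differed by 5.20. In GFP+ luminal cells 2 of 6 were higher and 2 lower. The shares of all tested genes that were called were 63.5% between the lineages, 42.0% between the stromal subsets and 34.7% between the luminal subsets, and nothing particular to the lists is read from these counts. After E+P, Grk3 rose in GFP+ stroma (3.15) and was the only gene of the 3 lists that edgeR called there. In tdTomato+ stroma edgeR called 0 of the 3 lists, with 6 receptor signalling genes, 5 inducers and 5 proteases at an unadjusted p under 0.05. DESeq2 called 1 of each list there, and limma-voom 0. In GFP+ luminal cells, where 5.96% of all genes were called, 4 genes fell, which were Il1r1 (-1.57), Mmp14 (-0.93), Ptk2b (-0.67) and Tnfrsf1a (-0.59), and none of the 3 lists rose by edgeR. In tdTomato+ luminal cells, where 14.1% of all genes were called, 6 of 23 receptor signalling genes, 2 of 15 inducers and 1 of 6 proteases were called. Rgs2 and Jak2 rose there (2.86 and 1.48), and Arrb1 (-1.14), Grk3 (-0.98), Grk2 (-0.89), Stat3 (-0.58), Il1r1 (-1.62), Irf1 (-1.19) and Dpp4 (-4.19) fell.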

How the data were processed

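The authors deposited raw read counts per gene, made from paired-end libraries of sorted cells aligned to GRCm38.p5 (GENCODE) and counted per gene with STAR 2.5.2a. The kit keeps strand, and whether counting used it and which GENCODE release was taken are not given in the sources used here. Symbols and coordinates came from GENCODE M21, where 50376 of 50600 gene IDs were found. The RIN of the RNA ran from poor to intact according to the paper's methods, which give no value per library. Libraries were amplified by PCR without molecular identifiers, so that intervals and floors cover counting error only. The 28 libraries held 8623383 to 24583803 counts (median 15329083.5).

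Deposited counts were tested with edgeR 4.0.16 (R 4.3.3), using its quasi-likelihood fit, TMM scaling and filterByExpr, for all 28 libraries (lineage), the stromal libraries and the luminal libraries, with p-values adjusted by Benjamini-Hochberg over all genes tested and calls at an adjusted p under 0.01 (two-sided). Standard errors are the log2 fold change over the square root of F. All adjusted p in the text are edgeR's unless named otherwise. Alternatives were the DESeq2 1.42.0 size factors and Wald test, limma 3.58.1 voom, library size alone, no low-count filter, the 2 groups alone, a looser threshold, the mouse as a block (for E+P, the replicate number) and each mouse left out. The script was tested on simulated data.

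Mouse numbers in the titles tie the 4 libraries of 1 animal, which is where the pairing comes from. Deviations from group means correlated at 0.02 to 0.16 on average within a mouse, and at -0.04 to 0.01 between different mice that share a number. The mice are separate animals, and untreated and E+P mice are not paired.

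Members described singly were those with a group mean of at least 10 CPM, those called in a comparison and the receptors or ligands of these. Members and lists were chosen with earlier results of these data known. Promoter windows came from RefSeq on GRCm38.p6. One member is not reported by name here.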

Additional observations from a re-analysis of the deposited data

Results flagged for a closer look

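Among untreated groups of 4 mice, 10 of 67 combinations of a member and a group had 1 mouse far from the other 3 in CPM. Chance gives about 1 in 20 for independent, normally distributed values. CPM need not be normally distributed and members share libraries, so no excess is read from this count. Mouse 3 accounted for 7 of the 10 combinations. In GFP+ stroma it had the highest Cxcl10 (359 CPM, the others 94.8 to 104 CPM) and Cxcl3 (41.7 CPM, the others 14.5 to 15.6 CPM), and in tdTomato+ stroma the highest Cxcl10 (85.8 CPM, the others 26.4 to 31.9 CPM). Its GFP+ luminal cells had the highest Cxcl15 (91.6 CPM, the others 6.68 to 19.0 CPM). Its tdTomato+ luminal cells had the highest Ccl11 (6.87 CPM, the others at most 0.243 CPM) and Ccl2 (4.48 CPM, the others at most 0.516 CPM) and the lowest Cxcr4 (4.48 CPM, the others 9.25 to 10.1 CPM). The same luminal library had the highest sums of fibroblast markers (82.4 CPM) and skeletal muscle markers (45.6 CPM) of its group, whose part in these values was not tested.

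Mouse 2 had the highest Cxcl1 (188 CPM, the others 27.9 to 52.8 CPM) and Cxcl2 (15.3 CPM, the others 4.31 to 4.91 CPM) in GFP+ luminal cells. Mouse 1 had the highest Cxcl13 in tdTomato+ stroma (41.1 CPM, the others 0.722 to 2.72 CPM).

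The difference between GFP+ and tdTomato+ cells itself differed between stroma and luminal cells for 4 members tested in both lineages (edgeR, stroma minus luminal cells, log2 scale). These were Cxcr4 (-5.32, adjusted p = 1.4e-11), Cxcl2 (-1.87, adjusted p = 0.0043), Cxcl16 (1.33, adjusted p = 0.00071) and Cx3cr1 (4.98, adjusted p = 7.4e-05).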

How the results depend on the processing

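Counts of called members that moved by over 1.5 times are given here, each against the count in the report. Without the low-count filter the counts were 26 against 14 for GFP+ against tdTomato+ stroma, 12 against 0 for E+P in GFP+ stroma, 6 against 0 for E+P in tdTomato+ stroma, 8 against 0 in the stromal interaction and 1 against 0 for the luminal interaction. At an adjusted p under 0.05 they were 1 (E+P in GFP+ stroma), 4 (GFP+ luminal), 5 (tdTomato+ luminal), 2 (luminal interaction) and 9 (subset difference between lineages). The DESeq2 Wald test gave 1, 4, 4, 2 and 8 for these, and limma-voom gave 4 for E+P in tdTomato+ luminal cells and 2 in GFP+ stroma. Fitting the 2 groups alone gave 0 in GFP+ luminal cells and 3 in GFP+ stroma for E+P, and library size alone gave 1 for E+P in GFP+ stroma. Leaving out each mouse gave 24 to 25 (lineage), 11 to 16 (stromal subsets), 5 to 7 (luminal subsets, 5 without E+P mouse 2), 0 to 1 (E+P in GFP+ stroma, 1 without untreated mouse 2), 0 to 2 (GFP+ luminal, 2 without untreated mouse 4), 1 to 3 (tdTomato+ luminal, 1 without E+P mouse 2 or 3) and 3 to 6 (subset difference between lineages, 3 without E+P mouse 2), and 0 in each case for E+P in tdTomato+ stroma and both interactions.

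With the mouse as a replicate block the pairing gave 26, 13 and 8 members for the lineage, stromal and luminal subset comparisons, 0 for both interactions and 5 for the subset difference between lineages. E+P was given to whole mice, so there the block was the replicate number, which different mice share without being paired, and it gave 0, 0, 1 and 2 members in the 4 populations. Of the members called, 23 of 26, 10 of 14, 5 of 9, 0 of 1 and 1 of 2 kept their call in every alternative. Scaling by library size alone moved the median log2 fold change of all genes from 0.02 to -0.27 (lineage), from 0.00 to 0.14 (luminal subsets), from -0.03 to -0.14 (E+P in GFP+ luminal cells) and from -0.05 to -0.27 (E+P in tdTomato+ luminal cells). No direction of a called member was reversed in any alternative. The causes were not tested, and depth limits statements on members near 3 counts.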
